A study of Rattus norvegicus with 5 samples.

Results

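The ventral tegmental area (VTA) of the rat midbrain contained a small group of glutamate nuclei that carried transcripts of *Lmx1a*, *Foxa1* or *Foxa2*, and these nuclei are described here. Of 22084 nuclei from 5 rats, 160 met the rule, with 18, 35, 14, 68 and 25 nuclei in rats 1 to 5. A nucleus was a barcode with at least 1000 unique molecular identifiers (UMIs, 1 per captured RNA molecule), more than 200 and fewer than 5000 genes and under 5% mitochondrial UMIs. A member had at least 2 UMIs of *Slc17a6*, the vesicular glutamate transporter VGLUT2, and at most 1 UMI of *Gad1*, *Gad2* and *Slc32a1* together, the genes of GABA synthesis and vesicular loading. It had fewer than 10 UMIs per 10000 of *Mog*, a myelin gene, and fewer than 8 per 10000 of *Th*, *Slc6a3*, *Slc18a2* and *Ddc* together, the genes of dopamine synthesis, uptake and storage. It also had at least 1 UMI of *Lmx1a*, *Foxa1* or *Foxa2*. The 248 glutamate nuclei that met every other condition but had none of these 3 genes (61, 93, 23, 47 and 24 in rats 1 to 5) are called glutamate nuclei without the 3 genes. The 2600 dopamine nuclei (230, 1581, 269, 224 and 296) met the conditions on GABA genes and *Mog*, had at least 8 per 10000 and at least 3 UMIs of the dopamine genes, and at least 1 UMI of *Slc6a3* or *Slc18a2*.

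The samples were punches of the VTA from 5 adult male Sprague-Dawley rats, with both hemispheres of 1 rat combined in 1 single-nucleus RNA-seq library. All 5 rats belonged to 1 group, given as saline-treated in the sample labels and described as drug-naïve in the study, so no treatment, genotype or time was compared. A punch can take in tissue next to the VTA, and the position of a nucleus within it was not recorded. Comparisons were made between kinds of nuclei of the same rats, and p-values measure only the spread between these 5 rats.

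*Lmx1a* encodes a LIM-homeodomain transcription factor, and *Foxa1* and *Foxa2* encode forkhead factors that open chromatin. In the embryo these factors act in the floor plate of the ventral midbrain, where they specify progenitors of dopamine neurons, and they are still expressed in many adult dopamine neurons. The VTA also holds glutamate neurons that use VGLUT2, some of which release dopamine or GABA as well.

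Neuronal genes were present as the label says. *Snap25*, a synaptic fusion protein gene of all neurons, was detected in 157 of the 160 members. The other vesicular glutamate transporters were nearly absent, with *Slc17a7* in 1 member and *Slc17a8* in 6. The rule genes chose the members and their values are given as a description. *Lmx1a* was present in 147 members, *Foxa2* in 39 and *Foxa1* in 5. *Lmx1a* was the only one of the 3 genes in 117 members, 25 had *Lmx1a* with *Foxa2*, 13 had *Foxa2* only, 4 had *Lmx1a* with *Foxa1*, and 1 had all 3. The group was therefore defined mainly by *Lmx1a*.

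Levels are given as UMIs of a gene per 10000 UMIs, after the UMIs of all nuclei of a kind in 1 rat were summed. The *Lmx1a* level in members was 2.73, 4.62, 4.83, 4.70 and 4.93 in rats 1 to 5, and in dopamine nuclei, which were not chosen on this gene, it was 0.386, 1.29, 2.03, 2.72 and 2.29. The *Foxa2* level in members was far lower, at 0.653, 0.202, 0.805, 0.218 and 0.385, and *Foxa1* was at 0 in 3 of the 5 rats. Single members carried 0 to 19 UMIs of *Lmx1a* (median 4) and 2 to 9 of *Slc17a6* (median 3). A member with 1 UMI of the 3 genes sat at the edge of the rule, and 33 members did, while 127 had 2 or more and 75 had 5 or more. The *Slc17a6* level was 3.50, 3.68, 7.85, 2.88 and 2.35 in members, and 5.58, 4.28, 9.57, 3.34 and 4.02 in glutamate nuclei without the 3 genes.

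The thresholds ran through continuous distributions. Among the members, 47 had 4 up to 8 dopamine gene UMIs per 10000 and 113 had under 4. Just outside, 25 glutamate nuclei with *Lmx1a* or a *Foxa* gene had 8 up to 12 per 10000 and 43 had more. The summed level of the 3 rule genes was 4.76 per 10000 in the 47 members just inside, 4.89 in the 113 below them and 3.83 in the 25 just outside. At the other limit, 75 members had exactly 2 UMIs of *Slc17a6*, and 157 nuclei with 1 UMI that met every other condition were not members.

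Depth and free RNA differed between the kinds of nuclei. The 5 libraries held 10193355 to 88576210 UMIs, and members had a median of 9890 UMIs per nucleus against 5862.5 in glutamate nuclei without the 3 genes and 2404.5 in dopamine nuclei. The members of rat 3 were the shallowest, with a median of 2560 UMIs and 49692 UMIs in all, so that 1 UMI there was 0.201 per 10000. The upper limit on free RNA, estimated from oligodendrocyte genes, was 4.65% to 15.1% of the UMIs of members. It was 9.21% to 27.5% in glutamate nuclei without the 3 genes, 56.1% and 43.7% in the dopamine nuclei of rats 1 and 2, and 8.37% to 17.3% in those of rats 3 to 5. Of all nuclei, 100 shared their barcode with a nucleus of another library, and none of these was a member. No doublet filter was applied to the counts reported here.

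Of the 408 glutamate nuclei, 39.2% were members (95% exact Clopper-Pearson interval 34.4% to 44.1%, which covers counting error only). The share was 22.8%, 27.3%, 37.8%, 59.1% and 51.0% in rats 1 to 5. With no maximum of genes per nucleus, members numbered 54, 44, 14, 108 and 30, in place of 18, 35, 14, 68 and 25. Glutamate nuclei without the 3 genes then numbered 81, 105, 23, 74 and 26, in place of 61, 93, 23, 47 and 24. The maximum thus lowered the share most in rat 1, and left the counts of rat 3 unchanged. The 3 genes were found in 2.08% of 7308 oligodendrocyte nuclei (median 2973.5 UMIs), which should lack them, in 6.50% of 2047 GABA nuclei and in 29.3% of dopamine nuclei. After every nucleus was thinned to 1000 UMIs, the shares were 15.4% in glutamate nuclei, 0.666% in oligodendrocyte nuclei, 1.70% in GABA nuclei and 10.7% in dopamine nuclei. Within rats, the share in glutamate nuclei exceeded that in oligodendrocyte nuclei by 37.7 percentage points ± 16 (SD, n = 5), with 19.3 the lowest and 57.1 the highest. These shares rest on the 3 genes that chose the members and are a description. Members also had more UMIs per nucleus than the other glutamate nuclei of their rat, by 1.31, 0.38, 0.13, 0.32 and 0.89 on the log2 scale in rats 1 to 5. The rule itself favours this direction, since a deeper nucleus is more likely to show a UMI of a low-level gene.

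The comparison with the other glutamate nuclei asked what else marked the nuclei that carried *Lmx1a* or a *Foxa* gene. Members had higher levels of 3 further transcription factor genes of the midbrain floor plate and dopamine lineage, *Bnc2*, *Lmx1b* and *Nr4a2*, and of the helix-loop-helix factor genes *Ebf2* and *Ebf3*. They also had higher levels of *Reln*, which encodes the secreted glycoprotein reelin, of *Tac1*, the precursor of substance P and neurokinin A, of the calcium channel subunit gene *Cacna2d3* and of *Nos1*, neuronal nitric oxide synthase. Over 7718 genes outside the rule, edgeR's quasi-likelihood test, with the rat as a block and p-values adjusted by Benjamini-Hochberg, called 47 genes higher (0.609%) and 28 lower (0.363%), or 75 in all (0.972%), at an adjusted p under 0.05. The median log2 difference of all these genes was -0.02. Levels did not overlap between the 2 kinds in 55 of the 7718 genes with members higher and in 26 with members lower. The number of calls depended on single rats, and was 141 without rat 1, 22 without rat 2, 38 without rat 4 and 35 without rat 5.

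*Bnc2*, which encodes the zinc finger protein basonuclin 2, had the largest difference of the named genes. Its level was 0.475, 4.72, 2.82, 1.07 and 3.78 in the members of rats 1 to 5, and 0.168, 0.0318, 0.542, 0.146 and 0.124 in the glutamate nuclei without the 3 genes. Members were higher in each rat, but rat 1 was low among them, below the highest of the other nuclei. The fitted difference was 17.6-fold (log2 4.14 ± 0.66 SE, adjusted p = 0.00935). *Bnc2* was detected in 30.6% of members, 5.65% of the other glutamate nuclei, 29.9% of dopamine nuclei and 1.93% of oligodendrocyte nuclei.

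*Lmx1b*, the paralog of *Lmx1a*, was at 0.831, 0.877, 1.01, 1.23 and 1.12 in members and at 0.0841, 0.223, 0, 0.171 and 0 in the glutamate nuclei without the 3 genes. The groups did not overlap and the members of the 5 rats lay close together. The difference was 6.73-fold (log2 2.75 ± 0.36 SE, adjusted p = 4.16e-05). *Lmx1b* was found in 54.4% of members and 4.44% of the others, with 0.369% in oligodendrocyte nuclei. *Nr4a2*, the orphan nuclear receptor NURR1 of dopamine neurons, was at 0.534, 0.978, 1.21, 0.668 and 0.694 in members and at 0.392, 0.175, 1.26, 0.122 and 0.185 in the others. Rat 3 went the other way and its other glutamate nuclei had the highest level of all. The difference passed the test (log2 1.60 ± 0.36 SE, adjusted p = 0.017) but was lost without rat 2 (1.21), rat 4 (1.38) or rat 5 (1.57).

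Of the genes on a list of midbrain floor plate and dopamine lineage factors, 9 outside the rule passed the filter on low counts, of which these 3 were higher and 0 lower. The median log2 difference of the 9 was 0.88. *Sox6* had a lower level in members in 5 of 5 rats and did not pass the test (log2 -2.12 ± 0.67 SE, adjusted p = 0.269). Of the list, 1 gene was called lower without rat 2 (2 higher of 9), without rats 1 and 2 (5 higher of 10) and with members of at least 2 UMIs of the rule genes (3 higher of 11), and 7 of 13 were higher with no maximum of genes.

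*Ebf2* was at 1.13, 6.24, 7.45, 4.75 and 6.05 in members and at 0.28, 0.748, 1.81, 0.512 and 0.371 in the glutamate nuclei without the 3 genes. Rat 1 was low, as for *Bnc2*, and overlapped the highest of the other nuclei. The difference was 8.46-fold but lay at the threshold (log2 3.08 ± 0.63 SE, adjusted p = 0.05). It missed the threshold without rat 2 (3.1), rat 3 (3.23), rat 4 (3.03) or rat 5 (2.82). *Ebf2* was found in 63.8% of members, 12.1% of the others and 6.31% of dopamine nuclei, against 1.29% of oligodendrocyte nuclei. *Ebf3* was at 2.14, 2.93, 1.81, 2.81 and 3.20 in members and 1.43, 0.843, 0.903, 1.37 and 0.309 in the others, with no overlap (log2 1.42 ± 0.26 SE, adjusted p = 0.00314, and 1.25 and no longer called without rat 2). On the list of other factors of glutamate neurons, these were the 2 called of 5 tested, with a median of 0.50. The direction of this list changed with the setting and with how many of its genes were tested. With no filter on low counts 1 of 27 was higher and 3 lower (median -0.74), and with no maximum of genes 2 of 10 were higher and 0 lower (median -0.43). Without rat 1 the median was -0.09 over 7 genes, and without rat 2, 0 of 6 were called.

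*Foxp2*, a forkhead factor gene, had levels that were far apart, and its call depended on the setting. It was at 6.05, 11.6, 9.66, 5.45 and 10.6 in members and 1.04, 1.11, 2.17, 3.85 and 0.124 in the other glutamate nuclei, and the groups did not overlap. The log2 difference was 2.50 ± 0.53 SE with an adjusted p of 0.0616, which missed the threshold. In 17 alternative settings *Foxp2* was called in 6, with DESeq2 (2.59, adjusted p = 6.88e-05), with DESeq2 size factors in edgeR (2.47, 0.0229), with no filter on low counts (2.48, 1.1e-05), with nuclei marked by Scrublet as possible doublets left out (2.64, 0.039), without rat 4 (3.15, 0.00125) and without rat 5 (2.16, 0.00569). In the other 11 it was not, at 1.85 to 2.73. Several other factor genes of the subthalamic nucleus and the mammillary region were rare in members. *Barhl1*, *Sim1*, *Lhx1* and *Pou4f1* were detected in 1 member each, and *Nkx2-1*, *Sox14* and *Nkx6-1* in 0, which allows a share of nuclei with a UMI of up to 1.88%.

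**Figure D1:**
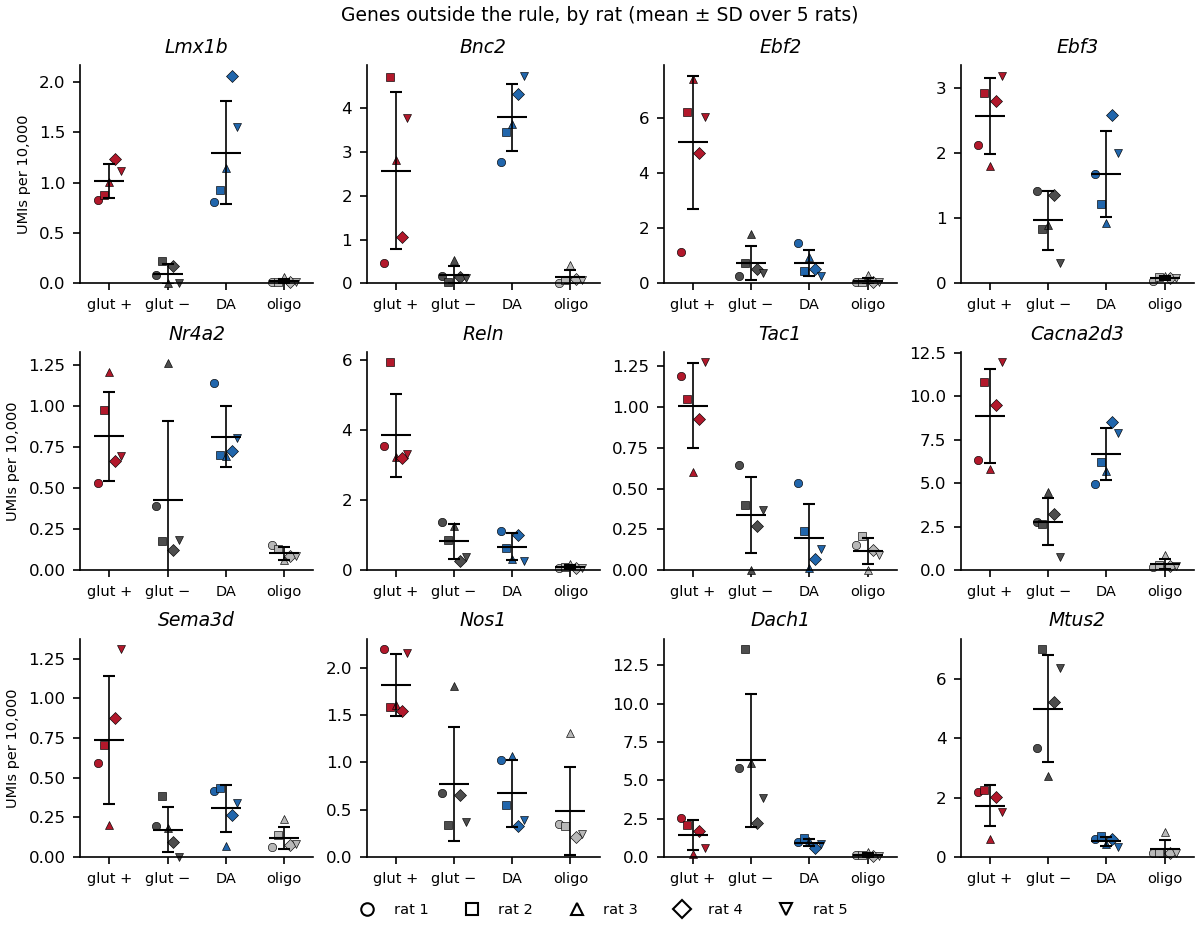
Levels of 12 genes in UMIs per 10000 in members, glutamate nuclei without the 3 genes, dopamine nuclei and oligodendrocyte nuclei, with 1 point per rat and the mean ± SD over 5 rats. *Lmx1b*, *Reln* and *Cacna2d3* show no overlap between members and the other glutamate nuclei, and *Mtus2* is lower in members.

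Among secreted signals, *Reln* was at 3.56, 5.94, 3.22, 3.21 and 3.31 in members and at 1.37, 0.875, 1.26, 0.268 and 0.371 in the glutamate nuclei without the 3 genes. Rat 2 stood above the other rats and the groups did not overlap (log2 2.51 ± 0.40 SE, adjusted p = 0.00501). *Reln* was detected in 46.9% and 14.1% of these nuclei, and in 1.87% of oligodendrocyte nuclei. *Tac1* was at 1.19, 1.05, 0.604, 0.925 and 1.27 in members and 0.645, 0.398, 0, 0.268 and 0.371 in the others. Members were higher in each rat, and only the members of rat 3 lay under the highest of the others (log2 1.63 ± 0.34 SE, adjusted p = 0.00935). The *Tac1* call was lost without rat 2 (1.65), rat 4 (1.5) or rat 5 (1.56). *Tac1* was the 1 called of 12 neuropeptide and neurotrophic genes tested, whose median difference was 0.05. *Sema3d*, a secreted semaphorin gene, was higher by 2.10 ± 0.38 SE on the log2 scale (adjusted p = 0.00314) and *Adamts9*, a secreted metalloprotease gene, by 1.80 ± 0.37 (adjusted p = 0.0077). *Sema3d* lost its call without rat 4 (1.78), and *Adamts9* without rat 4 (1.76) or rat 5 (1.48).

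The promoters of *Tac1* and *Bnc2*, which were higher in members, and of *Lmx1b*, the paralog of *Lmx1a*, are shown because Lmx1a and Lmx1b are homeodomain proteins and TAATTA is a core sequence that many homeodomain proteins bind. Each runs from 250 bases before the start site to 50 after it, read 5′ to 3′ on the gene's strand, from RefSeq in the GRCr8 build, with the letters TAATTA in capitals.
*Tac1*, chr4:36645333-36645632, plus strand: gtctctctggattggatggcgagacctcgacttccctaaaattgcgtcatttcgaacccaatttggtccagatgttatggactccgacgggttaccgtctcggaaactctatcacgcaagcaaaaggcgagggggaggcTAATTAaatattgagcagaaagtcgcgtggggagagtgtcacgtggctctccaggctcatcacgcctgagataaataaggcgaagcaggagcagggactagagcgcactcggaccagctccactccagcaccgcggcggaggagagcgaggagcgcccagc
*Bnc2*, chr5:104061841-104062140, minus strand: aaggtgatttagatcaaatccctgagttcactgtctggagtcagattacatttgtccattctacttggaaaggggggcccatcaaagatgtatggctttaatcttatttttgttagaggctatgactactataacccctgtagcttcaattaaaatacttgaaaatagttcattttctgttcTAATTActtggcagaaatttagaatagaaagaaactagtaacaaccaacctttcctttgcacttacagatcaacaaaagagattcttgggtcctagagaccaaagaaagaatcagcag
*Lmx1b*, chr3:37338508-37338807, minus strand: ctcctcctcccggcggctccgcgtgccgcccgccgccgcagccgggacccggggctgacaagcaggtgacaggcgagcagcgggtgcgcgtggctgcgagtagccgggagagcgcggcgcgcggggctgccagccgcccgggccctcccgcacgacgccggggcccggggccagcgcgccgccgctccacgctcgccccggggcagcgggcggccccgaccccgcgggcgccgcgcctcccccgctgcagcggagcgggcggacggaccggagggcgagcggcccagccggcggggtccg

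The letters began 111 bases before the start site of *Tac1* and 68 bases before that of *Bnc2*, and were not in the window of *Lmx1b*. TAATTA reads the same on both strands. It was present in 2 of 12 promoters of the 10 named genes higher in members that had an entry, and in 5.36% of 33469 rat promoters of the same length. A match describes the sequence and does not show that a factor binds there.

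Members differed from the other glutamate nuclei in a few channel and receptor genes. *Cacna2d3*, an auxiliary α2δ subunit of voltage-gated calcium channels, was at 6.35, 10.8, 5.84, 9.48 and 11.9 in members and at 2.75, 2.66, 4.51, 3.25 and 0.741 in the others. The groups did not overlap (log2 1.75 ± 0.30 SE, adjusted p = 0.00314). Of 22 sodium and calcium channel genes tested, *Cacna2d3* and *Cacng3*, an AMPA receptor auxiliary subunit gene, were higher and 0 lower, with a median of 0.14. The *Cacng3* difference was 1.45 ± 0.30 SE (adjusted p = 0.00967), with members higher in 4 of 5 rats, and lost its call without rat 2 (1.39), rat 4 (1.36) or rat 5 (1.16).

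Of 27 genes tested of a potassium channel list, *Kcnq5*, an M-current subunit, and *Kcnj3*, the G protein-gated subunit GIRK1, were higher and 0 lower, with a median of -0.11. *Kcnq5* was at 1.84, 2.02, 2.21, 2.17 and 2.81 in members and at 1.26, 0.493, 0.542, 1.10 and 1.42 in the others, with no overlap (log2 1.18 ± 0.24 SE, adjusted p = 0.00703, and 0.90 and no longer called without rat 2). *Kcnj3* was higher by 0.84 ± 0.20 SE (adjusted p = 0.0306), a call lost without rat 1 (0.72), rat 2 (0.72), rat 3 (0.85) or rat 5 (0.76).

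*Nos1* was at 2.20, 1.59, 1.61, 1.54 and 2.16 in members and at 0.673, 0.334, 1.81, 0.659 and 0.371 in the glutamate nuclei without the 3 genes. Rat 3 went the other way and the remaining 4 rats were clearly separated (log2 1.67 ± 0.30 SE, adjusted p = 0.00362, and 1.44 and no longer called without rat 2). It was the 1 called of 7 genes of calcium-binding proteins and nitric oxide synthesis, with a median of 0.37. *Adra1b*, an adrenergic receptor gene, was the 1 called of 16 peptide and monoamine receptor genes (log2 1.65 ± 0.38 SE, adjusted p = 0.0195). It was higher in 4 of 5 rats, and the call was lost without rat 2 (1.37), rat 4 (1.23) or rat 5 (1.66).

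In the other receptor lists 1 gene each was lower. *Glra1*, a glycine receptor subunit gene, was the 1 called of 17 GABA and glycine receptor genes (log2 -1.78 ± 0.38 SE, adjusted p = 0.00935, and -1.59 and no longer called without rat 2), with a list median of 0.05. *Grm7*, a presynaptic metabotropic glutamate receptor gene, was the 1 called of 21 glutamate receptor genes (log2 -1.02 ± 0.26 SE, adjusted p = 0.0467), with a list median of -0.07. *Grm7* was lower in members in 4 of 5 rats, and its call was lost without rat 2 (-1.10), rat 3 (-0.99), rat 4 (-1.06) or rat 5 (-0.68).

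Axon guidance genes were called in both directions, 2 higher and 2 lower of 29 tested, with a median of 0.07. *Sema3d* and *Ntn1*, which encodes the attractant netrin-1, were higher. *Ntn1* differed by 1.43 ± 0.32 SE (adjusted p = 0.0162), with members higher in 4 of 5 rats. Its call was lost without rat 2 (1.28), rat 3 (1.43), rat 4 (1.38) or rat 5 (1.11). *Nrp1*, a receptor for class 3 semaphorins, was at 0.949, 0.506, 0.201, 0.835 and 0.655 in members and at 1.46, 3.04, 1.08, 1.68 and 0.741 in the others. Members were lower in each rat, although the groups overlapped (log2 -1.31 ± 0.28 SE, adjusted p = 0.0105), and the call was lost without rat 2 (-0.85) or rat 4 (-1.40). *Epha4*, an ephrin receptor gene, was also lower (log2 -1.12 ± 0.24 SE, adjusted p = 0.00869), and lost its call without rat 2 (-1.21), rat 4 (-1.16) or rat 5 (-0.93). The list's counts moved with the setting, with 4 higher and 4 lower of 31 without rat 1, 0 of 28 without rat 4 and 0 higher and 1 lower of 26 after free RNA was subtracted (median -0.21). Of 28 synaptic adhesion genes 0 passed the test, with a median of -0.11, but 4 of 29 were lower without rat 1 (median -0.23) and 3 of 29 without rats 1 and 2 (median -0.27).

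Among the genes lower in members, *Mtus2*, which encodes a microtubule-associated protein, was at 2.20, 2.26, 0.604, 2.03 and 1.5 in members and 3.67, 6.98, 2.71, 5.2 and 6.36 in the glutamate nuclei without the 3 genes. The groups did not overlap (log2 -1.49 ± 0.23 SE, adjusted p = 0.000811). *Dach1*, a transcription cofactor gene, was at 2.55, 2.09, 0.201, 1.68 and 0.617 in members and 5.80, 13.6, 6.14, 2.20 and 3.83 in the others. Members were lower in each rat, with rat 4 close to level (log2 -1.80 ± 0.37 SE, adjusted p = 0.0298). The *Dach1* call was lost without rat 1 (-1.96), rat 2 (-1.51) or rat 5 (-1.66). *Klhl5*, a kelch-family gene, was lower by 3.41-fold without overlap (adjusted p = 0.00211), and *Asic2*, an acid-sensing channel subunit gene, by 2.32-fold (adjusted p = 0.00314), a call lost without rat 2 (-1.18) or rat 5 (-1.13).

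Several genes lower in members were abundant in oligodendrocytes. *Fign* (log2 -2.22 ± 0.41 SE), *Lhfpl6* (-1.87 ± 0.36), *Bcas1* (-1.39 ± 0.30) and *Cldn11* (-1.24 ± 0.30) had levels of 2.78, 3.43, 19.8 and 8.41 in oligodendrocyte nuclei. Of 8 oligodendrocyte markers, 0 were higher and 1, *Cldn11*, was lower (adjusted p = 0.0306), with a median of -0.66. With no maximum of genes per nucleus the median of the same 8 was 0.05 with 0 called, and *Cldn11* was at -0.25 (adjusted p = 0.876). The *Cldn11* call was also lost with DESeq2 (-1.22, adjusted p = 0.134), with DESeq2 size factors in edgeR (-1.27, 0.0797) and with nuclei marked by Scrublet left out (-1.16, 0.0879). Their summed level was 7.71 to 36.0 per 10000 over the rats in members, 15.2 to 57.9 in the glutamate nuclei without the 3 genes and 183 to 255 in oligodendrocyte nuclei. None of the 8 was at 0 in members. The 5 astrocyte markers tested gave 0 calls, with a median of -0.59. *Fign* lost its call without rat 1 (-2.0), *Bcas1* without rat 4 (-1.28) or rat 5 (-1.24), and *Cldn11* without rat 2 (-1.2), rat 4 (-1.16) or rat 5 (-1.26). The part of this difference in the lower calls was not tested.

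The remaining named genes completed the lists by size of change. Higher in members were *Arhgap24*, a GTPase-activating protein gene, by 2.94-fold, *Lmo4*, a LIM-only cofactor gene, by 2.68-fold, *Marchf1*, a ubiquitin ligase gene, by 2.76-fold, and the antisense gene *Aff1-as1* by 4.20-fold. *Arhgap24* and *Lmo4* showed no overlap between the groups, and *Lmo4* lost its call without rat 2 (log2 1.40) or rat 4 (1.20). Whether the counting used strand for *Aff1-as1* is not given in the sources used here. Lower were *Stk32b*, a kinase gene, by 3.79-fold, *Vstm2l* by 3.30-fold and *Tiam1*, a Rac exchange factor gene, by 2.61-fold. *Stk32b* lost its call without rat 5 (-2.0), *Vstm2l* without rat 2 (-1.56), rat 4 (-2.12) or rat 5 (-1.40), and *Tiam1* without rat 2 (-1.02), rat 3 (-1.37) or rat 5 (-1.32).

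Members differed from the other glutamate nuclei in depth and free RNA, and the named and listed genes were therefore also followed under settings that change these. Of 32 genes that could be tested after free RNA was subtracted, 15 kept the call, and of 34 tested with nuclei of the nearest UMI total, 17 did. The setting of nearest UMI total left out rat 3, where only 8 such other glutamate nuclei remained. It used 14, 28, 25 and 11 of them in rats 1, 2, 4 and 5. Depth, fewer nuclei and the missing rat cannot be told apart there. Without rats 1 and 2, 24 of 35 did. *Bnc2*, *Lmx1b*, *Nos1*, *Arhgap24*, *Marchf1*, *Aff1-as1*, *Klhl5* and *Lhfpl6* were called under all of these settings. Over all alternatives, however, *Lhfpl6* lost the call in 2 of 16 and ranged from -2.62 to -0.24, and *Nos1* lost it in 2 of 17. *Arhgap24*, *Marchf1*, *Aff1-as1* and *Klhl5* lost it in 1 each. *Reln* and *Cacna2d3* lost the call without rats 1 and 2 (log2 3.11, adjusted p = 0.0862, and 1.91, adjusted p = 0.313). *Ebf2* lost it after free RNA was subtracted (3.23, adjusted p = 0.145). *Tac1* lost it with nuclei of the nearest UMI total (1.83, adjusted p = 0.121). *Ebf3* (1.43 and 1.21), *Nr4a2* (1.92 and 2.28), *Kcnq5* (1.13 and 1.15) and *Mtus2* (-1.61 and -1.25) lost it both after free RNA was subtracted and with nuclei of the nearest UMI total. The same held for *Adamts9* (1.97 and 1.21), *Ntn1* (1.66 and 1.34), *Cacng3* (1.48 and 1.35), *Adra1b* (1.76 and 1.69), *Bcas1* (-2.19 and -1.44), *Kcnj3* (0.77 and 0.79), *Nrp1* (-1.42 and -1.41), *Tiam1* (-1.47 and -1.28) and *Vstm2l* (-2.01 and -1.91), which made 13 genes in all. *Kcnj3*, *Nrp1*, *Tiam1* and *Vstm2l* were also lost without rats 1 and 2, and were thus called under none of these 3 settings. *Sema3d*, *Asic2* and *Grm7* lost the call only after free RNA was subtracted, *Lmo4* and *Epha4* only with nuclei of the nearest UMI total, and *Fign*, *Dach1*, *Stk32b* and *Glra1* without rats 1 and 2. *Cldn11* lost it with nuclei of the nearest UMI total and without rats 1 and 2. *Cldn11*, *Glra1* and *Stk32b* were not tested in every setting.

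**Figure D2:**
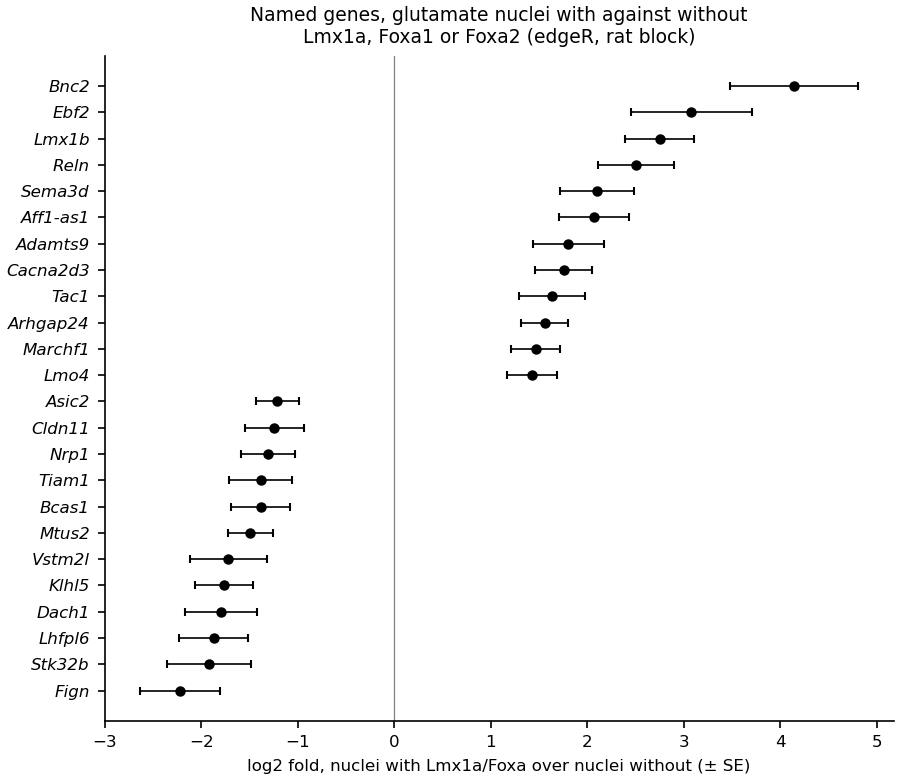
Log2 difference ± SE of the 24 named genes between members and the glutamate nuclei without the 3 genes, from sums per rat of 5 rats. *Bnc2* is at 4.14 at the top and *Fign* at -2.22 is the lowest.

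Few genes of the dopamine neuron outside the rule were called between members and the other glutamate nuclei. Of 15 tested, *Nr4a2* was higher and *Sncg*, gamma-synuclein, was lower (log2 -2.10 ± 0.42 SE, adjusted p = 0.00534, and -1.86 and no longer called without rat 2), with a median of 0.04. *Sncg* was lower in members in 3 rats and higher in 1. The calls depended on the setting, with 4 higher and 0 lower of 14 without rats 1 and 2 (median 0.73) and 5 higher and 1 lower of 19 with no maximum of genes (median 0.45). The summed level of the list was 15.1 to 32.1 per 10000 in members and 6.8 to 26.9 in the other glutamate nuclei. The 8 genes of glutamate synthesis and transport gave 0 calls in either direction, with a median of -0.07. *Glp1r*, the receptor at the centre of the study, was detected in 1 of the 160 members, 6 of the other 248 glutamate nuclei, 6 of the 2600 dopamine nuclei and 4 of the 7308 oligodendrocyte nuclei, too few to compare.

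Levels of the floor plate and Ebf genes also differed among the members themselves. These values pool the nuclei of all rats and are a description without a test. Members with 1 UMI of the 3 rule genes (33 nuclei, median 6861 UMIs), with 2 to 4 (52, 9304.5) and with 5 or more (75, 11633) had *Lmx1b* levels of 0.34, 0.88 and 1.42 per 10000. *Bnc2* was at 0.81, 1.38 and 3.06, *Ebf2* at 2.91, 4.51 and 5.76, and *Cacna2d3* at 6.0, 8.91 and 11.1. *Nr4a2* showed no such order, at 0.77, 0.84 and 0.66, and neither did *Reln*, at 2.01, 5.14 and 3.51, or *Tac1*, at 0.857, 1.15 and 0.997. *Mbp*, a myelin gene, went the other way at 13.8, 6.80 and 4.49. In the 4 rats with members of both kinds, nuclei with 5 or more UMIs were above those with 1 UMI in 4 of 4 rats for *Lmx1b*, *Ebf2*, *Ebf3* and *Cacna2d3*, and in 3 of 4 for *Bnc2* and *Foxp2*. They were above in 2 of 4 for *Nr4a2* and *Reln* and in 1 of 4 for *Tac1*. Rat 3 had no member with 5 or more. The part of depth and of oligodendrocyte RNA in this order was not tested.

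**Figure D3:**
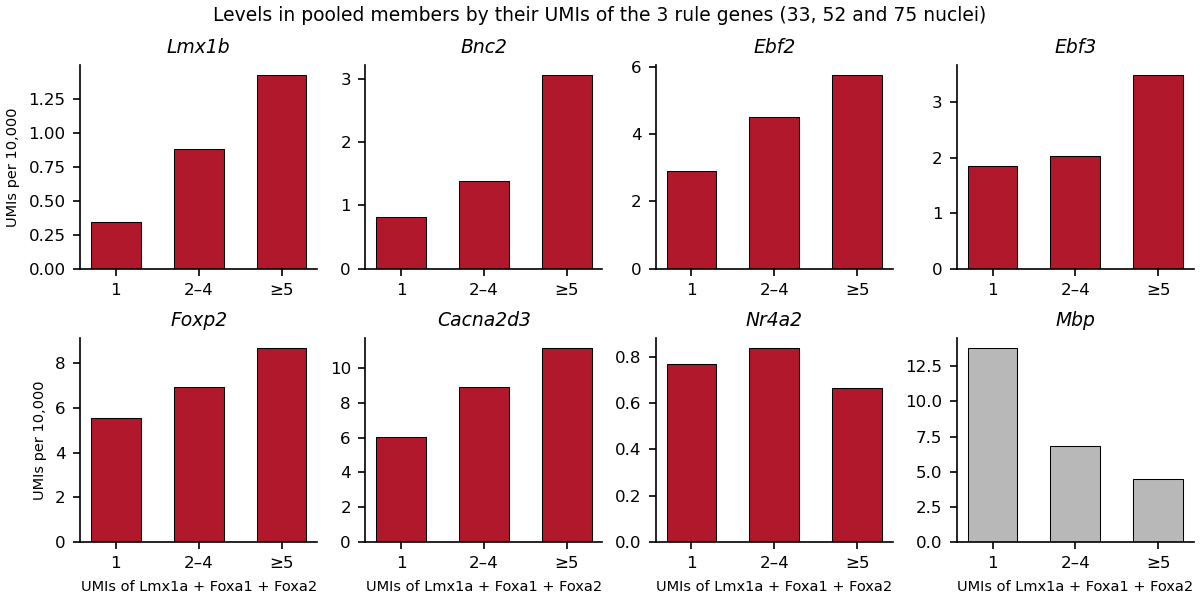
Levels of 8 genes in UMIs per 10000 in members grouped by 1, 2 to 4, and 5 or more UMIs of *Lmx1a*, *Foxa1* and *Foxa2* (33, 52 and 75 nuclei), pooled over rats. *Lmx1b* is at 0.34, 0.88 and 1.42, and *Mbp* is at 13.8, 6.80 and 4.49.

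The 13 members with *Foxa2* and no *Lmx1a* came mostly from rat 1. Against the 147 members with *Lmx1a*, their pooled levels were 0.29 and 1.15 for *Lmx1b*, 1.05 and 5.23 for *Ebf2*, 3.14 and 10.2 for *Cacna2d3* and 14 and 6.06 for *Mbp*. No rat had 10 such nuclei (8, 0, 2, 1 and 2), so no test over rats was made. Rat 1 gave 8 of the 13 and 10 of the 147, and its members as a whole were at 1.13 for *Ebf2*, so the rat and the missing *Lmx1a* cannot be told apart here. The 30 members with *Lmx1a* and a *Foxa* gene were at 3.94 for *Bnc2*, 7.50 for *Ebf2* and 10.8 for *Foxp2*, and the 117 with *Lmx1a* alone were at 1.80, 4.62 and 7.15.

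*Bnc2* divided the members further. The 49 members with a *Bnc2* UMI had a *Foxp2* level of 14.4 against 4.52 in the 111 without, higher in 5 of 5 rats, and a *Cacna2d3* level of 13.1 against 8.08, also in 5 of 5. Members with *Bnc2* numbered 2, 14, 6, 15 and 12 in rats 1 to 5, so the values of rat 1 rest on 2 nuclei. *Reln* was at 6.22 and 2.64, higher in 4 of 5 rats, whereas *Hs6st3*, a heparan sulfate sulfotransferase gene, was at 19.8 and 27.7. *Foxp2* was detected in 44 of the 49 members with *Bnc2* (89.8%), and these were 41.5% of the 106 members with *Foxp2*. Members nearer to the dopamine threshold, with 4 up to 8 dopamine gene UMIs per 10000, had more *Bnc2* (4.07 against 1.54 in those under 4) and more *Foxp2* (11.4 against 6.34), and less *Dach1* (0.59 against 2.0). These values pool the rats, and rat 2 gave 19 of the 47 while rat 4 gave 57 of the 113. Within rats, *Dach1* was lower near the threshold in 5 of 5, and *Bnc2* and *Foxp2* were higher in 4 of 5, although rats 1 and 3 had only 4 such nuclei each.

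Taking *Lmx1b*, *Bnc2*, *Ebf2*, *Nr4a2* and *Foxp2* together, 9 members had none, 28 had 1, 43 had 2, 34 had 3, 29 had 4 and 17 had all 5. In the glutamate nuclei without the 3 genes these numbers were 157, 57, 24, 5, 4 and 1. These 5 genes were chosen after their values were seen, and members were deeper, at a median of 9890 UMIs against 5862.5.

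The comparison with dopamine nuclei asked how members differed from the VTA neurons best known for these factors. Members had lower levels of 10 of 15 further genes of the dopamine neuron, and higher levels of *Kcnq5* and other channel genes, of 8 of 21 glutamate receptor genes and of *Tac1* and *Reln*. The rule itself favours lower dopamine neuron genes in members, since it split the kinds on *Th*, *Slc6a3*, *Slc18a2* and *Ddc*. Genes near 0 in members entered the test through the dopamine nuclei, so their direction was fixed beforehand. The same held the other way for genes near 0 in dopamine nuclei, which entered through the glutamate nuclei. The floor plate factors *Lmx1b*, *Bnc2* and *Nr4a2* were not called different. The same test called 406 of 7718 genes higher (5.26%) and 900 lower (11.7%), 1306 in all (16.9%), with a median log2 difference of -0.05. Without rat 2 it called 718. Dopamine nuclei of rats 1, 2 and 3 were shallow, with medians of 1405.5, 2140 and 2263 UMIs against 8261 and 5779 in rats 4 and 5, and those of rats 1 and 2 held the most free RNA. Without both rats, a setting chosen after the values were seen, 337 genes were higher and 440 lower, so that the share of calls in the higher direction was 43.4% in place of 31.1%. It was 46.8% after free RNA was subtracted and 47.6% with dopamine nuclei of the nearest UMI total. This comparison uses the same sums of members as the one above. Most calls also depended on which dopamine nuclei were used. Of 125 listed or named genes called, 112 could be tested against only the dopamine nuclei that themselves had at least 2 *Slc17a6* UMIs, and 36 of them kept the call. These were 4 rats with 12 to 46 such nuclei each, since rat 3 had 3.

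Of 15 dopamine neuron genes outside the rule, 10 were lower in members and 0 higher, with a median of -1.38. These numbers are a description, since the rule split the kinds on dopamine genes. *Gch1*, *Chrnb3* and *Chrna6*, with 4, 3 and 4 UMIs in all members, passed the filter on low counts through the dopamine nuclei. *Aldh1a1*, an aldehyde dehydrogenase of dopamine metabolism, was at 0.178, 0.304, 0, 0.0899 and 0.116 in members and at 2.82, 3.45, 1.48, 2.28 and 3.83 in dopamine nuclei. The groups did not overlap (log2 -4.33 ± 0.32 SE). *Aldh1a1* was near 0 in members, so this difference is a description as well. *Drd2*, the dopamine D2 receptor, was at 0.89, 0.101, 0, 0.283 and 0.308 in members and at 0.905, 2.30, 1.55, 3.53 and 3.01 in dopamine nuclei. Rat 1 was almost level between the kinds, the other rats were far apart, and the groups did not overlap (log2 -3.0 ± 0.46 SE, adjusted p = 0.000382). *Ret*, the receptor for GDNF-family factors, was lower but present, at 0.527 to 1.21 in members and 1.41 to 3.29 in dopamine nuclei (log2 -1.38 ± 0.25 SE, adjusted p = 0.000172). *Gch1*, which makes the cofactor of tyrosine hydroxylase, had 4 UMIs in all members, against 0.721 to 1.24 per 10000 in dopamine nuclei.

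The nicotinic receptor genes *Chrnb3*, *Chrna6* and *Chrna5* were close to 0 in members, while *Chrna4* was at a log2 difference of -1.20 and lower in 4 of 5 rats. *Chrnb3* had 3 UMIs in all members, with 0, 0, 0, 0.0257 and 0.0385 per 10000 in rats 1 to 5 and 0.62, 0.813, 0.521, 0.683 and 1.05 in dopamine nuclei. The ratio of the pooled levels was 0.0241 (95% exact counting interval 0.00496 to 0.0707). *Chrna6* and *Chrna5* had 4 UMIs each in members, with ratios of 0.0456 (0.0124 to 0.117) and 0.0302 (0.00821 to 0.0776). *Ntf3*, neurotrophin-3, had 2 UMIs (ratio 0.0208, interval 0.00252 to 0.0755), and *Tmem207* had 1 (ratio 0.005, interval 0.000126 to 0.0279). These 5 genes had too few UMIs in members to pass the filter on low counts there, and entered the test through the dopamine nuclei. The direction was thus fixed beforehand, and their levels are a description. *Cadps2*, a vesicle priming gene, was at 13.1 ± 6.58 in dopamine nuclei and 0.707 ± 0.432 in members (SD, n = 5, adjusted p = 0.000256).

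*Tph2*, the serotonin-synthesizing enzyme, was also lower in members, at 0 to 0.101 against 0.645 to 5.47 in dopamine nuclei. It had 7 UMIs in all members, so these levels are a description as well. The dopamine group held 292 nuclei (11.2%) with a UMI of *Tph2* or the serotonin transporter gene *Slc6a4*, and without these nuclei 1335 genes were called in place of 1306. *Mboat1*, *Cyyr1* and *Prima1* completed the named lower genes, at 12-fold, 11.4-fold and 10.2-fold (adjusted p = 4.47e-09 to 6.31e-06). *Prima1*, which anchors acetylcholinesterase, was at 2.37 in oligodendrocyte nuclei.

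Among floor plate and lineage factors, 3 of 9 tested were lower in members and 0 higher, with a median of -0.44, and 1 to 6 of 9 to 12 were lower with 1 rat left out. *Sox6*, a factor of a subset of dopamine neurons, was at 0.0593, 0.776, 0, 0.0385 and 0.0385 in members and 2.28, 2.78, 1.42, 0.854 and 1.5 in dopamine nuclei. Only rat 2 came near the lowest dopamine value (log2 -3.31 ± 0.59 SE). In the members of the other rats *Sox6* was near 0, so this difference is a description. *Zcchc12* was lower in 4 of 5 rats (log2 -0.83 ± 0.23 SE, adjusted p = 0.0101). *Lmx1b* was at 0.805 to 2.06 in dopamine nuclei (log2 -0.44, adjusted p = 0.22), *Bnc2* at 2.78 to 4.74 (-0.84, 0.217) and *Nr4a2* at 0.695 to 1.14 (-0.09, 0.87). A p above the threshold does not show that the levels were equal. *Ebf2* was higher in members in 4 of 5 rats (log2 2.84 ± 0.57 SE, adjusted p = 0.00525), with dopamine nuclei at 0.271 to 1.46, and rat 1 went the other way.

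**Figure D4:**
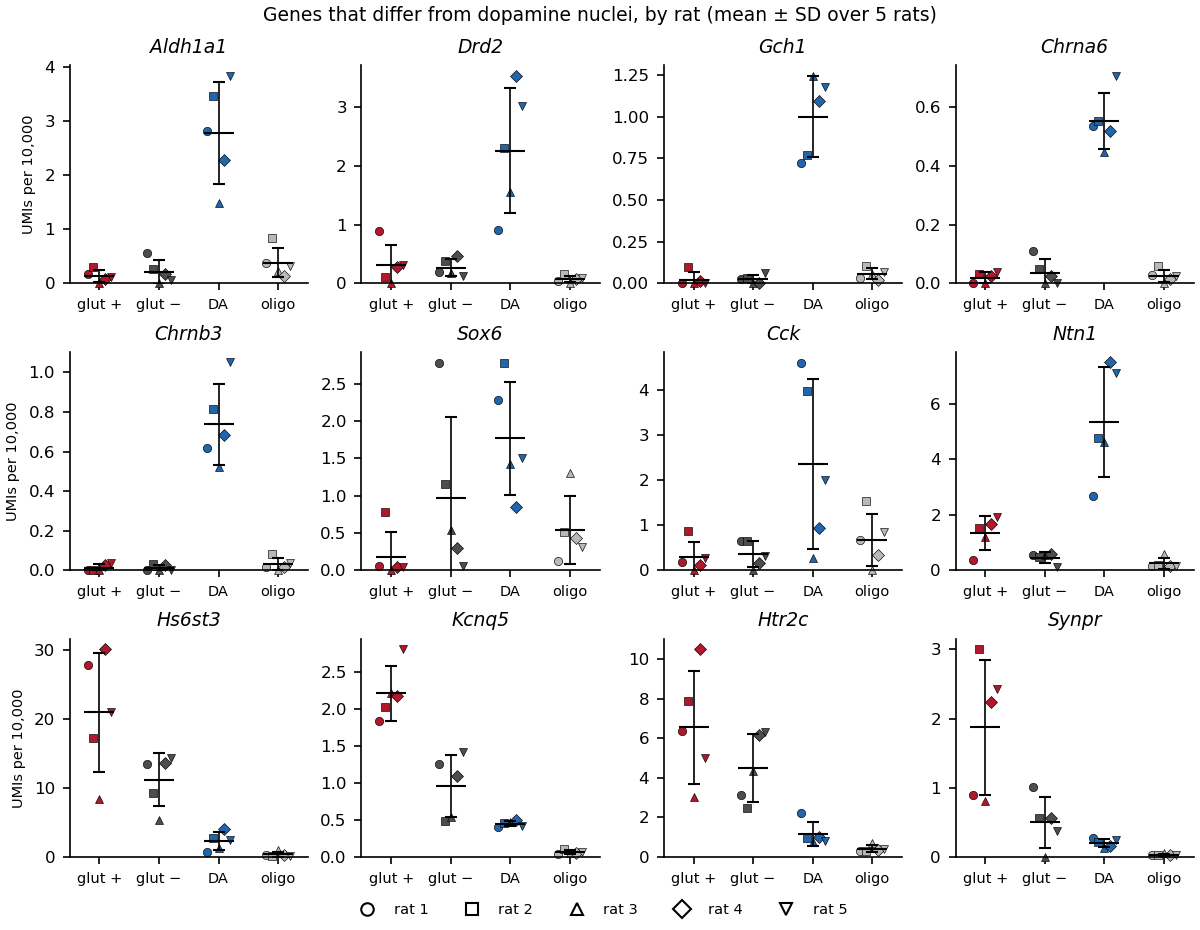
Levels of 12 genes in UMIs per 10000 in the kinds of nuclei compared, with 1 point per rat and the mean ± SD over 5 rats. *Aldh1a1*, *Chrnb3* and *Gch1* are near 0 in members, and *Hs6st3*, *Kcnq5* and *Synpr* are above dopamine nuclei in each rat.

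Signal genes went both ways, with 4 of 12 neuropeptide and neurotrophic genes higher and 3 lower, and a median of -0.10. Without rats 1 and 2 there were 3 higher and 1 lower of 11 (median 0.40), and after free RNA was subtracted 1 higher and 0 lower of 9 (median 0.28). *Tac1* was at 0.537, 0.241, 0.0145, 0.0661 and 0.133 in dopamine nuclei, below members in each rat and without overlap (log2 2.53 ± 0.30 SE, adjusted p = 9.76e-07). *Cck*, the precursor of cholecystokinin, was at 0.178, 0.877, 0, 0.116 and 0.27 in members and at 4.61, 3.97, 0.275, 0.942 and 2.0 in dopamine nuclei, lower in each rat, although the dopamine nuclei of rat 3 lay below the members of rat 2 (log2 -2.99 ± 0.28 SE, adjusted p = 2.63e-09). *Adcyap1*, the precursor of PACAP, was higher by 0.91 (adjusted p = 0.0303), a call lost without rat 2 (0.73), rat 4 (0.71) or rat 5 (0.86). *Bdnf* was higher by 0.82 (adjusted p = 0.0329) although in only 3 of 5 rats, a call lost without rat 2 (0.66) or rat 4 (0.36). *Calb1*, calbindin, was lower in each rat without overlap (log2 -1.72 ± 0.28 SE, adjusted p = 4.19e-05). *Nos1* was higher (1.59 ± 0.26, adjusted p = 9.67e-05), 1 of 3 higher and 2 lower among 7 genes of calcium-binding proteins and nitric oxide synthesis (median 0.20).

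Receptor genes called higher than in all dopamine nuclei included those for serotonin and opioids, and none of the calls that could be tested again held against the dopamine nuclei with *Slc17a6*. *Htr2c*, the serotonin 2C receptor, was at 6.35, 7.89, 3.02, 10.5 and 5.01 in members and at 2.25, 0.943, 0.753, 1.01 and 0.807 in dopamine nuclei. The groups did not overlap (log2 2.47 ± 0.36 SE, adjusted p = 0.000254). *Oprm1*, the mu opioid receptor, was at 1.13, 0.236, 1.21, 1.53 and 1.77 in members and 0.302, 0.282, 0.116, 0.441 and 0.343 in dopamine nuclei, with rat 2 going the other way (log2 1.64 ± 0.30 SE, adjusted p = 0.000402). *Oprd1*, *Htr4* and *Cnr1*, the delta opioid, serotonin 4 and cannabinoid CB1 receptors, were higher by 3.38 ± 0.50, 1.47 ± 0.22 and 1.08 ± 0.30 SE, *Oprd1* in 4 of 5 rats. In all, 5 of 16 peptide and monoamine receptor genes were higher and 4 lower, with a median of 0.58, and the lower ones were *Drd2*, *Chrna6*, *Chrna4* and *Tacr3*. Against the dopamine nuclei with *Slc17a6*, 0 of 13 were called, with a median of 0.28. *Htr2c* was then at a log2 difference of 0.99 (adjusted p = 0.169), *Oprm1* at 0.87 (0.295), *Htr4* at 0.77 (0.0631) and *Cnr1* at 0.30 (0.813), and *Oprd1* was not tested.

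Of 27 genes of the potassium channel list, 10 were higher in members and 5 lower, with a median of 0.38. *Kcnq5* was at 0.402, 0.454, 0.478, 0.496 and 0.426 in dopamine nuclei, below members in each rat and without overlap. *Kcnq5* (2.16 ± 0.22 SE), *Kcnh1* (2.01 ± 0.23) and *Kcnh7* (1.97 ± 0.24) were higher in each rat. *Kcnd3*, an A-type channel subunit (-1.64 ± 0.28), and *Kcnn3*, the small-conductance channel SK3 of dopamine neurons (-1.57 ± 0.33), were lower in 4 of 5 rats. *Kcnj6*, the GIRK2 subunit, was lower (-0.92 ± 0.23), a call lost without rat 4 (-0.77) or rat 5 (-0.77). Against the dopamine nuclei with *Slc17a6*, 1 of 25 genes of this list was higher and 1 lower, with a median of 0.29. *Kcnq5* (1.37, adjusted p = 0.153), *Kcnh1* (0.82, 0.104), *Kcnh7* (1.01, 0.0695), *Kcnd3* (-1.09, 0.0549), *Kcnn3* (-0.58, 0.288) and *Kcnj6* (-0.12, 0.901) were not called there.

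Glutamate receptor genes were more often called higher than lower, 8 and 2 of 21, with a median of 0.55. *Grik2*, a kainate receptor subunit, was at 34.5, 39.9, 41.1, 42.6 and 35.5 in members and 9.52, 11.2, 13.9, 15 and 13.7 in dopamine nuclei, with no overlap (log2 1.52 ± 0.23 SE, adjusted p = 1.54e-05). *Grin3a*, an NMDA receptor subunit (1.28 ± 0.21), and *Grm5*, a group I metabotropic receptor (1.35 ± 0.23), were higher in each rat, and *Grik3* (-1.33 ± 0.26) was lower in 4 of 5. Of 17 GABA and glycine receptor genes, 3 were higher, among them *Gabra5* (1.52 ± 0.25), and 2 lower, among them *Gabra4* (-1.53 ± 0.28), with a median of 0.38. Of 22 sodium and calcium channel genes, 4 were higher, among them *Scn8a* (1.43 ± 0.19), and 2 lower, with a median of 0.30. Over all 7718 genes 5.26% were called higher and 11.7% lower, so the lower counts of these receptor and channel lists were near the share of all genes. Without rats 1 and 2, 9 glutamate receptor genes were higher and 2 lower, and 8 genes of the potassium channel list were higher and 5 lower. Against the dopamine nuclei with *Slc17a6*, 3 of 21 glutamate receptor genes were higher, among them *Grik2* (0.91, adjusted p = 0.0151) and *Grm5* (0.87, 0.0418), and 0 lower. There, 0 of 17 GABA and glycine receptor genes and 1 of 22 sodium and calcium channel genes were called. *Grin3a* (0.62, adjusted p = 0.143), *Grik3* (-0.71, 0.132), *Gabra5* (0.40, 0.53), *Gabra4* (-0.62, 0.308) and *Scn8a* (0.65, 0.0808) lost the call.

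**Figure D5:**
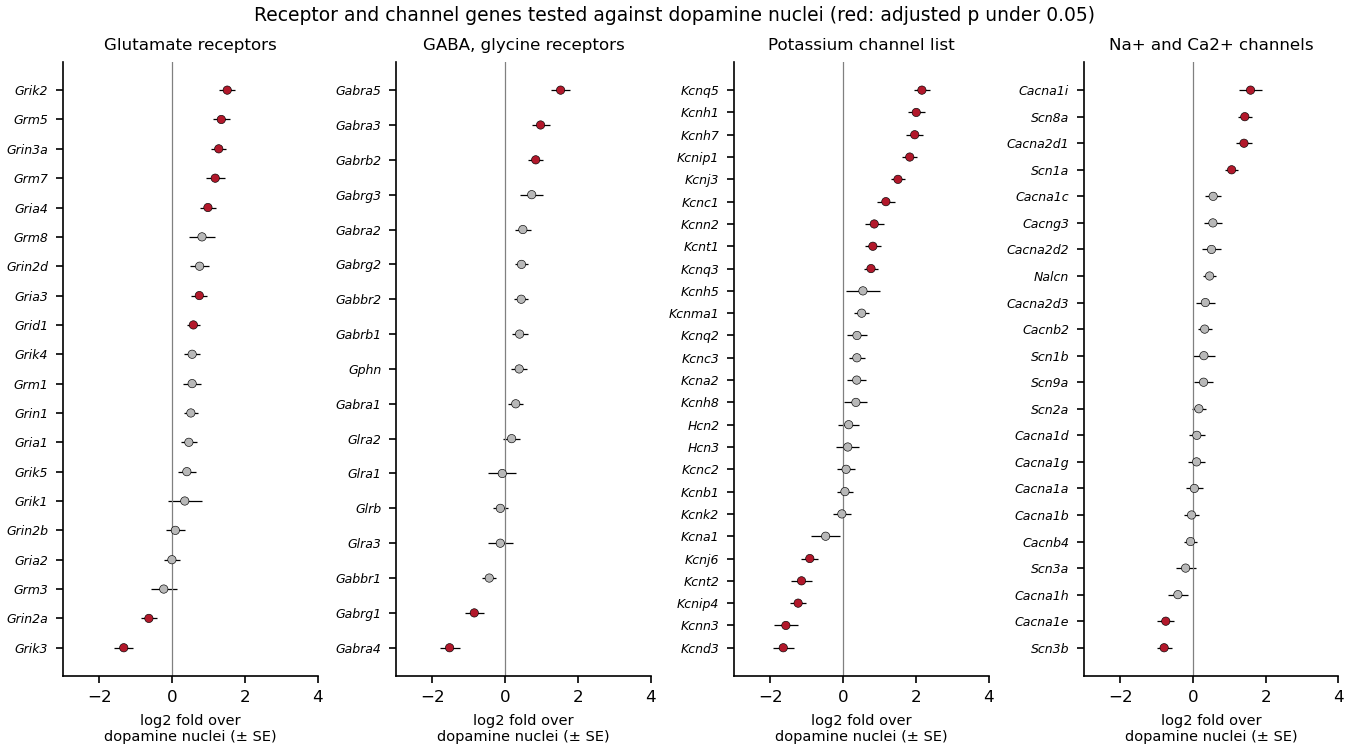
Log2 difference ± SE between members and dopamine nuclei for tested genes of 4 lists of receptors and channels, from sums per rat of 5 rats, with genes at an adjusted p under 0.05 in red. *Kcnq5* is at 2.16 and *Kcnd3* at -1.64, and genes whose results are not reported here are not drawn.

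Of the named genes higher than in dopamine nuclei in all 5 rats, *Ntng2*, *Synpr* and *Hs6st3* had the largest differences. *Hs6st3* was at 27.8, 17.2, 8.45, 30.1 and 21.0 in members and at 0.754, 2.74, 1.36, 4.07 and 2.47 in dopamine nuclei, 8.44-fold higher and without overlap (adjusted p = 2.03e-08). *Synpr*, synaptoporin of synaptic vesicles, was at 0.89, 3.0, 0.805, 2.24 and 2.43 in members and 0.268, 0.214, 0.13, 0.165 and 0.243 in dopamine nuclei, with no overlap (9.45-fold). *Ntng2*, netrin-G2, was 10.2-fold higher, *Syt6*, a synaptotagmin gene, 7.33-fold and *Unc13c*, a vesicle priming gene, 5.98-fold. In dopamine nuclei *Ntng2*, *Syt6*, *Tcerg1l* and *Synpr* had low means of 0.0566, 0.0844, 0.0954 and 0.204. They passed the filter on low counts through the glutamate nuclei, so their direction was favoured beforehand and their values are a description. *Arpp21*, *Tcerg1l*, *Tafa2*, *Ptchd4* and *Reln* were 5.75-fold to 6.68-fold higher. All of these 10 genes were without overlap between members and dopamine nuclei. Of all 7718 genes, 217 were without overlap in this direction and 94 in the other. The 10 were picked by size of change among genes higher in all 5 rats, which favours no overlap.

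Guidance and adhesion genes were more often called higher than genes at large. Of 29 guidance genes 7 were higher and 3 lower, and of 28 synaptic adhesion genes 8 were higher and 3 lower, with medians of 0.26 and 0.25. Over all 7718 genes 5.26% were called higher and 11.7% lower, so the lower counts were near the share of all genes. *Ntn1*, higher in members than in the other glutamate nuclei, was lower than in dopamine nuclei, at 0.356, 1.52, 1.21, 1.67 and 1.93 in members and 2.68, 4.74, 4.62, 7.48 and 7.09 in dopamine nuclei (log2 -2.06 ± 0.25 SE, adjusted p = 1.29e-06, no overlap). *Nrp2* (1.39 ± 0.34), a semaphorin receptor, and *Slit2* (1.19 ± 0.20), a secreted repellent, were higher in each rat, and *Nrxn3*, a presynaptic neurexin, was lower (-2.05 ± 0.31, adjusted p = 2.75e-05). Against the dopamine nuclei with *Slc17a6*, *Ntn1* (-1.55, adjusted p = 0.0106) and *Nrxn3* (-1.54, adjusted p = 0.0013) were still called, and *Nrp2* (0.69, adjusted p = 0.357) and *Slit2* (0.54, adjusted p = 0.188) were not.

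Glial markers were lower in members than in dopamine nuclei. All 8 oligodendrocyte markers were called lower, with a median of -1.48, as were 3 of 5 astrocyte markers, with a median of -1.54. The summed level of the 8 was 118 and 89.3 per 10000 in the dopamine nuclei of rats 1 and 2 and 17.5 to 26.2 in those of rats 3 to 5, against 7.71 to 36.0 in members. Without rats 1 and 2, 4 of the 8 were lower, while 9 of 14 dopamine neuron genes were lower and 1 higher. With no maximum of genes, 3 of the 8 were lower (median -0.67). *Mbp* turned from a log2 difference of -1.26 to 0.21 after free RNA was subtracted.

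With only the dopamine nuclei that had at least 2 *Slc17a6* UMIs, 2 of 11 dopamine neuron genes tested (median -0.31) and 0 of 9 floor plate factors (median -0.58) were called lower. *Aldh1a1* was still called (log2 -4.14), and *Drd2* (-1.99) and *Sox6* (-0.63) were not. Among the 112 listed or named genes tested there, the median size of the log2 difference was 0.87 in place of 1.37, and 104 were smaller in size than against all dopamine nuclei. *Reln* (0.98, adjusted p = 0.2), *Ebf2* (1.19, 0.161), *Nos1* (0.82, 0.117), *Ret* (-0.99, 0.0529), *Zcchc12* (-0.79, 0.072), *Arpp21* (2.39, 0.0587), *Tcerg1l* (1.37, 0.0677), *Adcyap1* (0.12, 0.912) and *Bdnf* (1.29, 0.156) were not called. *Tac1* (2.78, adjusted p = 0.00141), *Hs6st3* (2.40, 7.42e-05), *Cck* (-1.95, 0.002) and *Calb1* (-1.47, 0.0286) still were. *Synpr* (1.71), *Ntng2* (2.48) and *Syt6* (1.77) were also still called, with their direction favoured beforehand as given above. After free RNA was subtracted 82 of 108 kept the call against dopamine nuclei, 70 of 110 did with dopamine nuclei of the nearest UMI total and 98 of 120 without rats 1 and 2. The part of free RNA in the comparison with dopamine nuclei was not tested beyond these values.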

How the data were processed

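Nuclei were isolated from frozen VTA tissue of 5 rats and sequenced with the 10x Genomics 3′ v3.1 assay. The authors deposited raw unfiltered UMI counts per gene and barcode, before their own removal of free RNA (SoupX), doublets (scDblFinder) and low-quality nuclei. The submitters' processing notes name Cell Ranger 8.0.1, the file headers give version 4, and the genome build is not given in the sources used here. The members, gene lists and alternatives were chosen with earlier results of these data known.

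UMI counts were summed per rat and kind of nucleus, giving 15 sums from 5 rats and 3 kinds. A rat with fewer than 10 nuclei of any kind in a fit was left out of that fit. This took out rat 3 with members of at least 2 UMIs of the 3 genes, where it had 8 members. It also took out rat 3 with other glutamate nuclei of the nearest UMI total, where it had 8 of these. Sums were tested with edgeR 4.0.16 (TMM normalization, quasi-likelihood test, rat as a block, limma 3.58.1, R 4.3.3) over 7738 genes that passed its filter on low counts, with Benjamini-Hochberg adjustment. The 20 rule and mitochondrial genes were left out of call counts and lists. The block rests on the same rat giving each set of sums, and deviations from the group means correlated at 0.249 to 0.436 between members and the other glutamate nuclei of a rat, and at 0.440 to 0.571 between members and dopamine nuclei. The SE given with a log2 difference was worked back from this test, as the size of the difference divided by the square root of the F statistic. It does not always order genes as the adjusted p does. DESeq2 1.42.0 was an alternative. The procedure was tested on simulated counts. Exact intervals were made with scipy 1.17.1 (Python 3.11.15).

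Named genes were up to 12 in each direction with the largest change among those called, with the same direction in all 5 rats and a mean of at least 0.5 UMIs per 10000 in the higher group. Added were up to 6 called genes of each list at 0.1 or more, and well-known list genes that were not called. Oligodendrocyte nuclei had at least 3 UMIs and 10 per 10000 of *Mog*, and GABA nuclei had at least 3 UMIs of the GABA genes. Doublets were scored with Scrublet in scanpy 1.11.5. Its automatic threshold marked 21 of 23220 nuclei, and so the highest 6% of scores per library, with 2 members among them, were left out in an alternative. The limit on free RNA was set from droplets under 100 UMIs and the oligodendrocyte markers. Of 420 listed genes, 9 were not found under their names and were not analysed here. Results of a few genes are not reported here.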

Additional observations from a re-analysis of the deposited data

Results flagged for a closer look

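The 50 values tested were levels of named genes in members and the differences per rat in share and UMI total. Of these, 7, all levels of genes, had 1 rat far from the other 4 by Dixon's test (critical value 0.71 for 5 rats), where chance alone gives about 1 in 20. *Reln* was at 5.94 per 10000 in rat 2 and at 3.21 to 3.56 in the others. *Asic2* was at 2.98 in rat 4 and 1.31 to 1.65 in the others. *Tafa2* was at 1.01 in rat 3, whose members were the shallowest, and 2.77 to 3.44 in the others. The remaining 4 rested on a few UMIs in genes near 0 in members. With 4 rats at 0, as for *Tmem207* and *Ntf3*, the ratio of the test is 1 by construction, so the rate by chance does not apply to them. *Tmem207* was at 0.0593 in rat 1 and 0 in the others, *Ntf3* at 0.0257 in rat 4 and 0 in the others, *Gch1* at 0.101 in rat 2 and 0 to 0.0128 in the others, and *Cyyr1* at 0.297 in rat 1 and 0 to 0.0385 in the others.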

How the results depend on the processing

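Against the glutamate nuclei without the 3 genes, the 75 calls became 175 with no filter on low counts (87 higher, 88 lower), 174 with no maximum of genes (121 and 53), 29 after free RNA was subtracted (21 and 8), 34 with nuclei of the nearest UMI total (24 and 10), and 22 to 141 with 1 rat left out. Without rats 1 and 2 there were 128 calls (83 and 45). The same-animal pairing mattered most: with no replicate block 2 genes were called, both higher, while 158 were called against dopamine nuclei (98 and 60). Against dopamine nuclei, the 1306 calls became 393 after free RNA was subtracted, 395 with nuclei of the nearest UMI total, 718 to 1503 with 1 rat left out, 777 without rats 1 and 2, 333 with dopamine nuclei that had *Slc17a6* and 657 with those that had *Lmx1a*, *Foxa1* or *Foxa2*. The share of calls that were higher was 20.2% with no filter. The settings without rats 1 and 2, with dopamine nuclei that had the 3 genes, and with none that had *Tph2* or *Slc6a4* were chosen after seeing the data. The cause of these shifts was not tested, apart from the fewer samples or nuclei that some settings hold. Of 592 values of 36 genes against the other glutamate nuclei, 167 lost the call, and of 812 values of 42 genes against dopamine nuclei, 62 did, and none of these values reversed. *Bnc2* and *Lmx1b* kept the call against the other glutamate nuclei in all 17 alternatives. The share of members stayed 15.9 percentage points above that of oligodendrocyte nuclei when thinned to 1000 UMIs, 30.1 with at least 2 UMIs of the 3 genes and 32.9 to 42.3 with 1 rat left out, and the log2 difference in UMI totals was 0.43 to 0.72. Members with *Lmx1a* against those with a *Foxa* gene only could not be fitted, because no rat had 10 of the latter. The 1552500 UMIs of all members set a floor of 0.0193 per 10000 for a gene with 3 counts.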
